A study of Mus musculus with 8 samples.

Results

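Phox2a, Sox10, Foxd3, Ret, Elavl4, Stmn2 and Tubb3 are 7 genes used to mark neural crest cells and the intrinsic neurons that arise from them. They were chosen by gene symbol, with earlier results of these data known. Every probe set with 1 of these symbols was taken, whatever its signal, which gave 13 of the 45101 probe sets on the array. All 7 genes passed the filter on low values, among 16112 genes in all. Where a gene has several probe sets, the one with the highest mean signal among those that passed the filter stands for it in tests across all genes.

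The study measured total RNA from lung mesenchyme microdissected from CD1 mouse embryos staged e11.5 to e12.5. Stalk mesenchyme kept for 12 h in growth medium with 400 ng/ml Wnt1 on tissue culture plastic gave 2 arrays, and stalk mesenchyme kept for 12 h in the control growth medium gave 2. Mesenchyme of the branch tips and of the stalks, taken without culture, gave 2 arrays each. No genetic change is given for any group. Nothing in the labels says whether the replicates of a group came from separate litters or cultures, so the p-values reflect how far these arrays differ from one another, a spread that may be technical, and 2 arrays a group limit the precision of every value below.

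Neural crest cells leave the dorsal neural tube, and some of them reach the foregut and follow it into the lung, where they form ganglia along the airways and the Schwann cells of their nerves. In the embryonic lung these neurons lie close to the smooth muscle of the proximal airways. Sox10 and Foxd3 are transcription factors of the crest cell and its glial descendants, and Phox2a is a homeodomain factor of autonomic neurons. Ret is the receptor tyrosine kinase through which glial cell line-derived neurotrophic factor and its relatives act on enteric and other crest cells. Elavl4 (HuD), Stmn2 and Tubb3 are made by differentiating neurons, the first as an RNA-binding protein, the second as a regulator of microtubules and the third as a neuronal beta-tubulin.

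Most member signals lay under the middle of their array. Of the 104 pairs of a member probe set and an array, 28 (26.9%) were above the median of that array, 15 of 52 on culture arrays and 13 of 52 on uncultured arrays. The ratio of a signal to its array median ran from 0.0481 to 2.71, with a median of 0.671, and 0 of the 13 probe sets were above the array median on all 8 arrays. Detection calls were not used here, so whether a dim probe set detects its gene was not tested. In bulk tissue such as this, fewer cells of a type and less RNA per cell cannot be told apart.

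**Figure D1:**
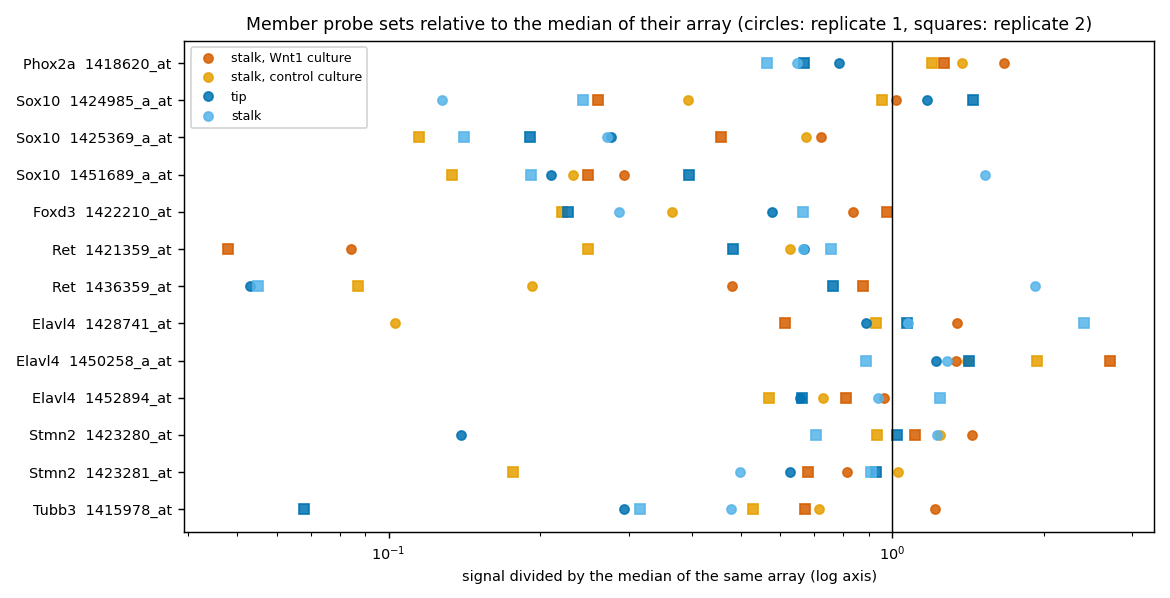
Each mark is the signal of 1 member probe set on 1 array divided by the median signal of that array (log axis), with a row for each of the 13 probe sets, circles for replicate 1 and squares for replicate 2. Most marks lie left of the line at 1, and the Elavl4 probe set 1450258_a_at reaches the highest ratio, 2.71.

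The arrays of cultured and uncultured tissue differed as a whole. The median signal was 296 and 149 on Wnt1 culture arrays, 299 and 209 on control culture arrays, 99.8 and 86.3 on tip arrays, and 95.5 and 76.5 on stalk arrays (replicates 1 and 2 throughout). The ratio of the 3' to the 5' probe set of Actb, which rises as RNA is broken or cDNA is cut short, was 21.2 and 6.81 in Wnt1 cultures, 23.3 and 24.4 in control cultures, 3.65 and 3.84 in tip and 4.52 and 2.02 in stalk. All 8 lung mesenchyme markers examined, among them Tbx4, Tbx5 and Foxf1, were above the array median on all 8 arrays. Against stalk, 5 of these 8 fell and 1 rose in Wnt1 cultures, and 6 fell in control cultures (list medians of log2 fold change -1.75 and -1.54), where 3 in each still fell with quantile normalization, with Tbx4 at 1013 and 1183 in Wnt1 cultures and 741 and 877 in control cultures, against 3432 and 4304 in stalk. Of 5 endothelial markers 2 fell in Wnt1 cultures and 3 in control cultures, and of 4 erythroid markers 2 fell in Wnt1 cultures and 4 in control cultures. Of the epithelial markers, Epcam was at 825 and 838 in Wnt1 cultures and 970 and 839 in control cultures, against 153 and 136 in stalk. Of 8 epithelial markers, 6 and 3 were above the array median in Wnt1 cultures, 5 and 6 in control cultures, 4 and 4 in tip and 5 and 4 in stalk, and their summed signal was 4181 and 12460 in Wnt1 cultures, 4838 and 5339.5 in control cultures, 2747 and 1677 in tip and 1845 and 1549.7 in stalk. On Wnt1 culture replicate 2, Krt18 (6905) and Krt8 (4384) made up most of that sum. Cdh1 was at 21.2 and 13.9 in Wnt1 cultures, against 47.8 and 65.8 in stalk. Against stalk, 6 of the 8 were higher and 2 lower in Wnt1 cultures, with 1 passing the test. In control cultures 8 were higher, with 2 passing. The macrophage gene C1qb was also higher in culture, at 3626 and 2978 with Wnt1 and 4304 and 5255 without it, against 628 and 493 in stalk. It was the 1 of 6 macrophage markers that passed the test in each culture. Of the 6, 5 were higher and 1 lower in Wnt1 cultures against stalk, and 6 were higher in control cultures. With quantile normalization 4 were higher and 2 lower in each culture. The part of these other cell types in the member values was not tested.

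The autonomic factor Phox2a was higher on every culture array than on any uncultured array. Its probe set 1418620_at had a signal of 494 and 189 in Wnt1 cultures, 411 and 251 in control cultures, 78.3 and 57.7 in tip and 61.7 and 43.2 in stalk. The Wnt1 and control cultures overlapped with each other, and so did tip and stalk. Phox2a was above the array median on the 4 culture arrays, with ratios from 1.20 to 1.67, and below it on the 4 uncultured arrays, with ratios from 0.564 to 0.785. In order of mean signal the groups were Wnt1 culture (342 ± 216), control culture (331 ± 113), tip (68.0 ± 14.6) and stalk (52.4 ± 13.1; SD, n = 2 each), and the first pair and the last pair of neighbours did not differ beyond their spread.

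The crest factors Sox10 and Foxd3 were dim and variable. The Sox10 probe set that stands for the gene, 1424985_a_at, had a signal of 301 and 38.8 in Wnt1 cultures, 118 and 199 in control cultures, 117 and 125 in tip and 12.2 and 18.6 in stalk. Stalk was the low group in signal on this probe set, and the other groups overlapped. Relative to the array median the tip arrays were the highest, at 1.17 and 1.45. The ratios were 1.02 and 0.260 in Wnt1 cultures, 0.394 and 0.953 in control cultures and 0.128 and 0.244 in stalk. A second Sox10 probe set, 1425369_a_at, had 214 and 68.1 in Wnt1 cultures, 202 and 24.0 in control cultures, 27.6 and 16.5 in tip and 25.9 and 10.8 in stalk, so that tip and stalk overlapped there. The third, 1451689_a_at, had 86.9 and 37.1 in Wnt1 cultures, 69.2 and 27.9 in control cultures, 21.0 and 34.1 in tip and 146 and 14.7 in stalk. Its 2 stalk arrays took both the highest and the lowest of the 8 values, and it did not pass the filter.

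Foxd3, which keeps crest cells multipotent, was read by the single probe set 1422210_at, at 247 and 146 in Wnt1 cultures, 109 and 46.2 in control cultures, 57.7 and 19.6 in tip and 27.3 and 50.8 in stalk. It was above the median of its array on 0 of 8 arrays. The Wnt1 arrays were the 2 highest of the 8, and control culture overlapped with tip.

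The receptor Ret gave contrary readings from its 2 probe sets. The probe set 1436359_at, which stands for the gene, was at 142 and 131 in Wnt1 cultures, 57.6 and 18.2 in control cultures, 5.29 and 65.8 in tip and 183 and 4.21 in stalk. The stalk replicates were the highest and the lowest of the 8 arrays, so the stalk mean of 93.8 ± 127 (SD, n = 2) describes neither array. The other probe set, 1421359_at, did not pass the filter and had 25.0 and 7.18 in Wnt1 cultures, against 187 and 52.1 in control cultures, 66.7 and 41.6 in tip and 63.4 and 57.9 in stalk. Wnt1 cultures were thus the lowest group on 1 Ret probe set and above control cultures on the other.

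The neuronal RNA-binding protein gene Elavl4 had close replicates in culture. Its probe set 1450258_a_at was at 396 and 405 in Wnt1 cultures, 419.5 and 404 in control cultures, 122 and 123 in tip and 123 and 68.0 in stalk. The 4 culture arrays lay within a narrow band above all uncultured arrays, and tip and stalk overlapped. It was above the array median on 7 of 8 arrays, with ratios of 1.34 and 2.71 in Wnt1 cultures, 1.41 and 1.94 in control cultures, 1.22 and 1.42 in tip and 1.29 and 0.889 in stalk, so relative to the array median control culture and stalk lay closer than in signal and the replicate 1 arrays of all groups lay between 1.22 and 1.41. Ordered by mean signal, control culture (412 ± 10.7) and Wnt1 culture (400.3 ± 6.14) came before tip (122 ± 0.274) and stalk (95.5 ± 38.8; SD, n = 2 each).

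Of the other 2 Elavl4 probe sets, 1 shared this split in signal. The probe set 1428741_at was at 398 and 91.6 in Wnt1 cultures, 30.7 and 194 in control cultures, 88.5 and 92.4 in tip and 103 and 184 in stalk, with overlap of cultured and uncultured arrays. The probe set 1452894_at was at 284 and 121 in Wnt1 cultures, 217 and 119 in control cultures, 65.5 and 57.2 in tip and 89.4 and 95.4 in stalk, where all culture arrays were above all uncultured arrays by a smaller margin. Relative to the array median its arrays overlapped. The ratios were 0.962 and 0.808 in Wnt1 cultures, 0.728 and 0.570 in control cultures, 0.657 and 0.663 in tip and 0.936 and 1.25 in stalk. Tested on their own in control cultures against stalk, 1428741_at had a log2 fold change of -0.45 (limma adjusted p = 0.64817) and 1452894_at of 0.60 (0.45174). The Elavl4 calls below therefore rest on 1 of 3 probe sets.

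Stmn2 and Tubb3, the microtubule genes, had lower signals without culture on the probe sets that stand for them. The Stmn2 probe set 1423280_at was at 426 and 165 in Wnt1 cultures, 372 and 195 in control cultures, 13.9 and 88.3 in tip and 117 and 54.1 in stalk. All 4 culture arrays were above all uncultured arrays in signal, with replicate 2 of the Wnt1 cultures closest to stalk replicate 1. Relative to the array median, cultured and uncultured arrays overlapped on this probe set. The ratios were 1.44 and 1.11 in Wnt1 cultures, 1.245 and 0.931 in control cultures, 0.139 and 1.02 in tip and 1.23 and 0.707 in stalk. The second Stmn2 probe set, 1423281_at, was at 241 and 102 in Wnt1 cultures, 307 and 36.9 in control cultures, 62.5 and 80.0 in tip and 47.6 and 69.5 in stalk, where replicate 2 of the control cultures was the lowest of the 8 arrays. Tubb3 (1415978_at) was at 359 and 100.4 in Wnt1 cultures, 213 and 111 in control cultures, 29.3 and 5.87 in tip and 45.6 and 24.2 in stalk. Its culture arrays were all above its uncultured arrays, and within culture replicate 1 was the higher array of each group. The number of the 13 member probe sets above the array median was 6 and 3 in Wnt1 cultures, 4 and 2 in control cultures, 2 and 4 in tip and 5 and 2 in stalk, with no split between cultured and uncultured arrays.

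**Figure D2:**
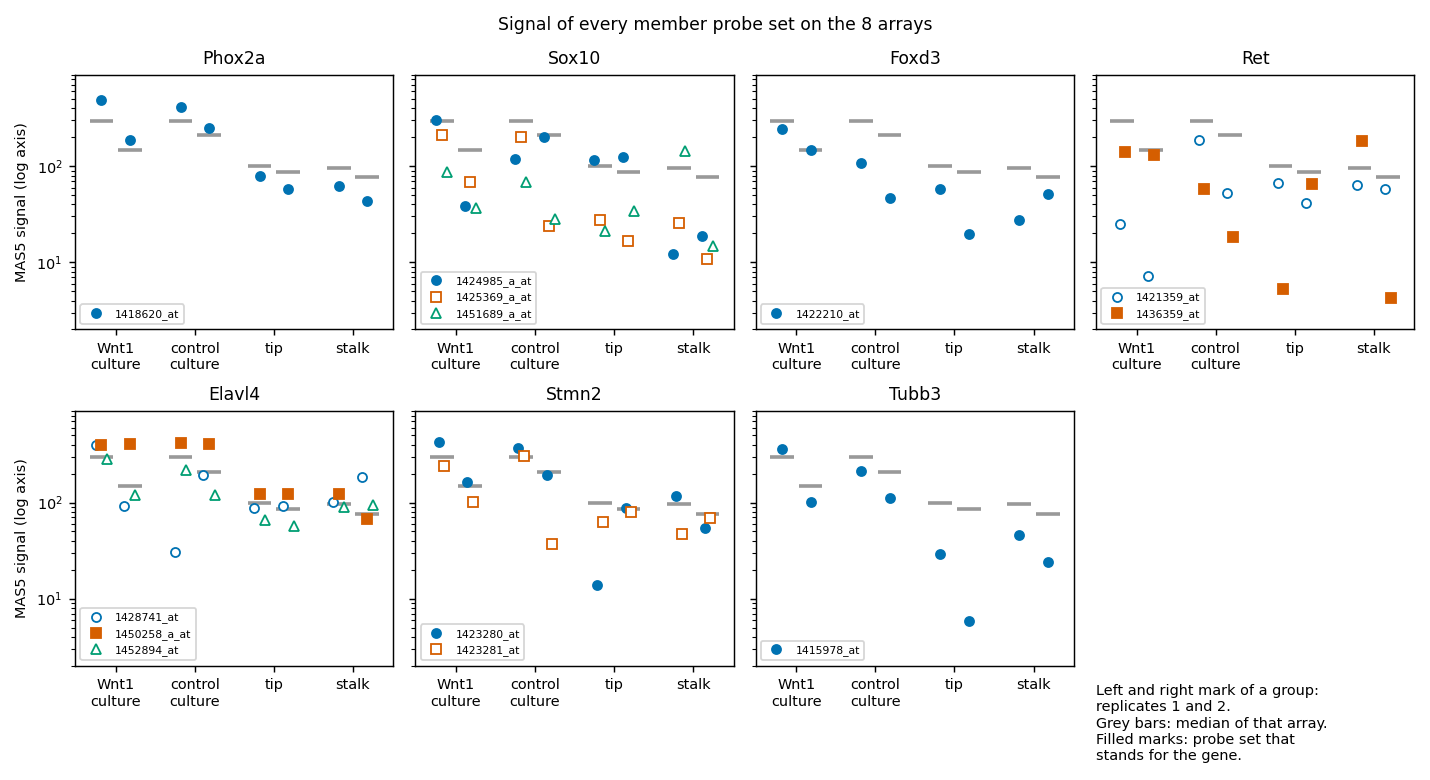
The MAS5 signal (log axis) of each member probe set is plotted on the 8 arrays, with the left and right mark of a group for replicates 1 and 2, grey bars for the median of that array and filled marks for the probe set that stands for the gene. The Phox2a marks lie above the grey bars in culture and under them in tip and stalk, and the grey bars stand at 149 or more on culture arrays, against 99.8 or less on uncultured arrays.

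Tip mesenchyme was compared with stalk mesenchyme, both without culture, to ask whether the genes of crest cells and neurons differ between the growing end and the proximal part of a branch. Sox10 was the single member whose arrays did not overlap, averaging 121 ± 5.43 in tip and 15.4 ± 4.57 in stalk (signal, SD over 2 arrays each). Its log2 fold change was 1.47 ± 0.69 (SE) and its adjusted p, by limma with Benjamini-Hochberg adjustment over all genes, was 0.99992. The other 6 members had log2 fold changes between -0.52 for Stmn2 and 0.28 for Elavl4, with Phox2a at 0.22, Foxd3 at -0.03, Tubb3 at -0.37 and Ret at -0.51, and their arrays overlapped. The sign of 4 of them turned when 1 array was left out, over ranges of -1.63 to 0.61 for Ret, -1.12 to 0.07 for Stmn2, -0.37 to 0.31 for Foxd3 and -0.0048 to 0.57 for Elavl4. Thus 0 of 7 members passed the adjusted p of 0.05, as did 0% of all genes tested, and 0 members passed an unadjusted p of 0.05, which 91 of 16112 genes did.

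Tip arrays were both above stalk arrays for 1 of the 7 members, where 18.2% of all genes showed that order, and both below for 0 members, where 16.2% of all genes did. The member median was -0.03, beside 0.01 over all genes. Sox10 ranked 97th of all genes by p in this comparison, and the second Sox10 probe set, tested on its own, had a log2 fold change of 0.09 ± 0.71 (SE, limma adjusted p = 0.99995). With every value under 298.6, the highest array median, raised to it, the Sox10 difference was 0.

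Wnt1 cultures were compared with control cultures to ask what the added Wnt1 protein, a secreted ligand of the canonical Wnt pathway, changed in cultured stalk mesenchyme. No member passed the test (0 of 7 by limma, also 0 at an unadjusted p of 0.05), nor did any gene (0% at an adjusted p of 0.05, although 1297 genes had an unadjusted p under 0.05). Foxd3 averaged 196 ± 71.2 in Wnt1 cultures and 77.7 ± 44.5 in control cultures (SD, n = 2 each), a log2 fold change of 1.0 ± 0.61 (SE) with a limma adjusted p of 0.71413. Ret by 1436359_at averaged 136 ± 8.01 in Wnt1 cultures and 37.9 ± 27.9 in control cultures (SD, n = 2 each), a log2 fold change of 1.18 ± 0.77 (SE) with a limma adjusted p of 0.74307. These were the 2 members whose Wnt1 arrays lay above both control arrays, and the second Ret probe set had its Wnt1 arrays below both control arrays.

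The other 5 members overlapped between Wnt1 and control cultures. Their log2 fold changes were -0.05 for Phox2a, -0.23 for Sox10, -0.04 for Elavl4, -0.01 for Stmn2 and 0.27 for Tubb3, with SEs from 0.46 to 0.69. Wnt1 arrays were both higher for 2 of 7 members, against 10.1% of all genes, and both lower for 0 members, against 15.9% of all genes. The member median was -0.01, beside -0.08 over all genes. The sign of Phox2a, Elavl4 and Stmn2 turned positive under quantile normalization or equal array medians, and leaving out 1 culture array also turned the sign of 4 members. Leaving out replicate 2 of the Wnt1 cultures gave 0.56 for Phox2a, 0.58 for Stmn2 and 0.80 for Sox10. Leaving out replicate 1 of the Wnt1 cultures gave -0.47 for Tubb3. Without replicate 1 of the control cultures Phox2a was at 0.26 and Stmn2 at 0.40, and without replicate 2 Sox10 was at 0.07 and Tubb3 at -0.09.

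Control cultures were compared with uncultured stalk to ask what the 12 h in culture did by itself. Phox2a and Elavl4 rose, and Sox10, Stmn2 and Tubb3 were higher on both culture arrays without passing the test. Phox2a averaged 331 ± 113 in control cultures and 52.4 ± 13.1 in stalk (SD, n = 2 each), a log2 fold change of 1.93 ± 0.56 (SE) with a limma adjusted p of 0.028894. Elavl4 averaged 412 ± 10.7 in control cultures and 95.5 ± 38.8 in stalk (SD, n = 2 each), a log2 fold change of 1.74 ± 0.46 (SE) with a limma adjusted p of 0.022149. The higher members that did not pass were Sox10 at 1.74 ± 0.69, Tubb3 at 1.35 ± 0.65 and Stmn2 at 1.32 ± 0.64 (log2 fold change ± SE), with limma adjusted p of 0.073741, 0.13049 and 0.12897 in that order.

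Foxd3, at 0.52 ± 0.61, and Ret, at -0.40 ± 0.77 (log2 fold change ± SE), overlapped between control culture and stalk, and Foxd3 turned to -0.47 under quantile normalization. Ret was at 0.72 without stalk replicate 1 and -1.52 without stalk replicate 2. The 2 members that rose stand beside 17.1% of all genes, and the 0 members that fell beside 9.26% of all genes. Both control arrays were above both stalk arrays for 5 of 7 members, where 46.1% of all genes had that order, and both were below for 0 members, where 25.4% of all genes had it. The member median of 1.35 was above the 0.45 of all genes and close to the 1.38 of the 5636 genes whose mean level over the 8 arrays lay within the range of the members, 30% of which rose. Phox2a, Foxd3 and Tubb3 were above the filter on culture arrays alone, so that passing it required a high value there.

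Wnt1 cultures were set against the same stalk arrays, and the comparisons of both cultures share these 2 arrays. Phox2a and Elavl4 rose here too. Phox2a had a log2 fold change of 1.88 ± 0.56 (SE) with a limma adjusted p of 0.041834, against 1.93 in control cultures. Elavl4 had 1.70 ± 0.46 (SE) with a limma adjusted p of 0.031783, against 1.74 in control cultures. Tubb3 at 1.63 ± 0.65, Foxd3 at 1.52 ± 0.61, Sox10 at 1.51 ± 0.69 and Stmn2 at 1.32 ± 0.64 (log2 fold change ± SE) were higher on both Wnt1 arrays, with limma adjusted p from 0.093096 for Foxd3 to 0.14865 for Stmn2, and Ret at 0.78 ± 0.77 overlapped. Sox10 was at 0.48 without Wnt1 culture replicate 1 and 2.54 without replicate 2. Ret was at 1.90 without stalk replicate 1 and -0.33 without stalk replicate 2.

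The 2 members that rose with Wnt1 stand beside 9.35% of all genes, and the 0 that fell beside 6.88% of all genes. Both Wnt1 arrays were above both stalk arrays for 6 of 7 members, against 41.5% of all genes, and both were below for 0 members, against 25.5% of all genes. Phox2a, Foxd3 and Tubb3, which are among these 6, were above the filter on culture arrays alone. They had to be high there to be tested, so these counts are descriptions. The member median was 1.52, beside 0.35 over all genes and 1.19 over the 5636 genes in the members' range of level, of which 15.2% rose.

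**Figure D3:**
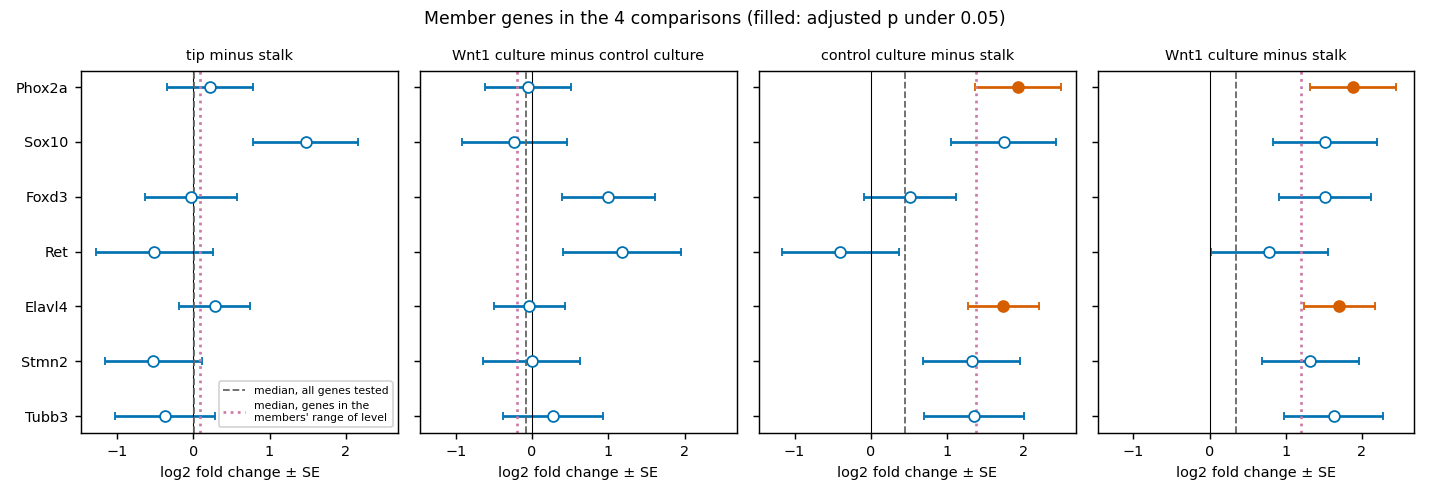
The log2 fold change of each member is drawn with its standard error in the 4 comparisons, filled where the adjusted p was under 0.05, with a dashed line at the median of all genes tested and a dotted line at the median of the 5636 genes in the members' range of level. Phox2a and Elavl4 are filled in both comparisons with stalk, where the dotted line stands at 1.38 and 1.19, and no member is filled in the other 2 panels.

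The rise of Phox2a and Elavl4 in culture depended on how the arrays were scaled. With quantile normalization 0 of 7 members passed in either culture comparison. Phox2a was then at 0.83 (limma adjusted p = 0.29141) in control cultures and 1.08 (0.20604) in Wnt1 cultures, and Elavl4 at 0.79 (0.33463) and 0.92 (0.29164). With all arrays set to the same median, 0 members passed, Phox2a was at 0.78 and 0.92 and Elavl4 at 0.49 and 0.67, while the median of all genes moved to -0.86 in control cultures and -0.74 in Wnt1 cultures. With values under 298.6 raised to it, Elavl4 passed in both comparisons, at 0.41 and 0.37, and Phox2a did not, at 0.20 (limma adjusted p = 0.72616) and 0.33 (0.53037). That floor replaced every tip and stalk signal of both genes. These groups therefore had no spread in this fit, and the Elavl4 calls there leave out the difference between its stalk replicates.

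Over all genes, 2759 were called higher and 1492 lower in control cultures against stalk as deposited, 555 and 692 with quantile normalization, and 707 and 5602 with equal medians. In Wnt1 cultures against stalk, 1506 were called higher and 1109 lower as deposited, 309 and 372 with quantile normalization, and 589 and 4318 with equal medians. Under quantile normalization the member median was 0.22 in control cultures and 0.69 in Wnt1 cultures, beside 0.33 and 0.34 over the genes in the members' range of level. What part the higher array medians and the higher Actb 3' to 5' ratio of the culture arrays have in these values was not tested.

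The promoters of Phox2a and Elavl4 are shown because these were the members that rose in both culture comparisons. RefSeq windows of 300 bases, from 250 before to 50 after the transcription start (GRCm38.p6), were matched for 4 of the 7 members, the others being Sox10, Ret and Stmn2. The Phox2a window lies at chr7:101818063-101818362 on the plus strand. The Elavl4 window lies at chr4:110351862-110352161 on the minus strand and belongs to the most upstream of 4 starts. Each is printed 5′ to 3′ with capitals for every match to the E-box CANNTG, the letters that basic helix-loop-helix factors such as those of neurons bind.
Phox2a: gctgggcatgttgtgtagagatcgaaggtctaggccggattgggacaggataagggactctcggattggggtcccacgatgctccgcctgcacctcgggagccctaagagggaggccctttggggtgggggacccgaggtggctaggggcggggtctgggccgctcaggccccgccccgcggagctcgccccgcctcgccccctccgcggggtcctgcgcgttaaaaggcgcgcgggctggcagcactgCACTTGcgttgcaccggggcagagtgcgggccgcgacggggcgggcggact
Elavl4: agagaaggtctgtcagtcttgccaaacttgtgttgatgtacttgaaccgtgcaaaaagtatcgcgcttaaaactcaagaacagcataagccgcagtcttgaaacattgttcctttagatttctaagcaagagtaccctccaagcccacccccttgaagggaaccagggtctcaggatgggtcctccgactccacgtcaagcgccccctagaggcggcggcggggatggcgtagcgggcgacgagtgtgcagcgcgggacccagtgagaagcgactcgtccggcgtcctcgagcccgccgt
The Phox2a window has a GC content of 71.3% and 1 E-box match, and the Elavl4 window has a GC content of 57.0% and 0 matches. Neither holds the homeodomain core ATTA or the TATA box TATAAA on either strand, and none of these patterns overlapped in the windows shown. Of 32851 windows of the same length, 72.3% hold an E-box match, 58.0% hold ATTA and 13.6% hold TATAAA, so the 1 match in Phox2a is a common feature and says nothing of a factor's binding.

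Neighbouring genes of the crest and neuron programme were counted from 6 lists. The counts stand beside 17.1% of all genes that rose and 9.26% that fell in control cultures, 9.35% and 6.88% in Wnt1 cultures, and 30% in control cultures and 15.2% in Wnt1 cultures that rose among the genes in the members' range of level. Genes above the filter on culture arrays alone had to be high there to be counted, so these counts and medians are descriptions. Such genes were 3 of 13 crest regulators, 1 of 9 partners of Ret and the endothelin receptor, 6 of 23 neuronal genes, 8 of 12 autonomic genes, 2 of 7 glial genes and 2 of 3 neuroendocrine genes. Of 13 neural crest regulators that passed the filter, 6 rose and 1 fell in control cultures against stalk (median 1.33, beside 0.45 over all genes), and 3 rose and 2 fell in Wnt1 cultures against stalk (median 0.24, beside 0.35). Tfap2b, an AP-2 factor of the crest, was at 532 and 119 in Wnt1 cultures and 331 and 446 in control cultures, against 12.7 and 26.4 in stalk, with log2 fold changes of 2.28 and 2.76. Zic1 rose in both cultures, with log2 fold changes of 2.05 with Wnt1 and 2.29 without it. Pax3, a paired-box factor of the dorsal neural tube, did so too (2.23 and 2.31). Tfap2a rose in control cultures (1.88) and was at 1.39 in Wnt1 cultures without passing (limma adjusted p = 0.070355). Tfap2b, Zic1 and Tfap2a, which are 3 of the 6 that rose in control cultures, were above the filter on culture arrays alone. Ets1, a factor of cranial crest that endothelium also uses, fell to 347 and 1120.4 in Wnt1 cultures and 389.8 and 952 in control cultures, against 2749.7 and 3635 in stalk. With quantile normalization the Ets1 calls were lost (limma adjusted p = 0.085506 in control cultures and 0.10899 in Wnt1 cultures). The endothelial markers fell beside it, with a list median of -1.28 in Wnt1 cultures and -1.99 in control cultures, and their part in the Ets1 values was not tested.

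Sox9, a relative of Sox10 that airway epithelium and cartilage also make, was at 47.7 and 42.4 in Wnt1 cultures, 479 and 412 in control cultures and 424 and 240.1 in stalk. It fell by 2.03 on the log2 scale in Wnt1 cultures against stalk (limma adjusted p = 0.020016), and with quantile normalization by 2.49 (0.026628). Between Wnt1 and control cultures its log2 fold change was -2.46 ± 0.48 (SE), with a limma adjusted p of 0.55217. Under quantile normalization 1 crest regulator, the intermediate filament gene Nes, still rose in control cultures (1.56, limma adjusted p = 0.039909). In Wnt1 cultures 0 then rose and 2 fell, Sox9 and Snai2, with a list median of -0.39. Snai2 was at -1.29 as deposited (limma adjusted p = 0.056141) and -1.70 with quantile normalization (0.026628). Its signal was 7594 and 7724 in Wnt1 cultures and 11717 and 19756 in control cultures, against 19657 and 17895 in stalk. The mesenchyme marker Col1a2 had 16559 and 12354 in stalk, and the part of mesenchyme other than crest in the Snai2 signal was not tested.

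Among the partners of Ret and of the endothelin receptor, 2 of 9 rose and 0 fell in control cultures (median 0.74), and 2 rose and 2 fell in Wnt1 cultures (median 0.38). Gfra3, the co-receptor of artemin, was at 661 and 421 in Wnt1 cultures and 781 and 593 in control cultures, against 74.4 and 171 in stalk. Its log2 fold change was 1.85 in Wnt1 cultures and 2.18 in control cultures. The ligand genes Pspn, at 2.20 in control cultures, and Nrtn, at 1.32 in Wnt1 cultures, rose too. Ednrb, the endothelin receptor of crest cells, fell by 1.77 and Ece1, which activates endothelins, by 1.86 on the log2 scale in Wnt1 cultures against stalk, and 0 of the 9 passed with quantile normalization, where the list medians turned to -0.35 in Wnt1 cultures and -0.38 in control cultures.

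Of 23 genes of the neuronal cytoskeleton, RNA binding and the synapse, 9 rose and 1 fell in control cultures (median 1.40), and 5 rose and 1 fell in Wnt1 cultures (median 0.91). Elavl3, a relative of Elavl4, rose by 2.30 on the log2 scale in control cultures, with Mapt (2.63), Snap25 (2.48) and Gng3 (2.05). These 4 were above the filter on culture arrays alone, as were 5 of the 9 that rose, and with quantile normalization 0 of the 23 rose in either culture. Stmn4, a relative of Stmn2, was at 537 and 2098 in Wnt1 cultures and 86.6 and 874 in control cultures, against 14.1 and 12.9 in stalk. Its log2 fold change of 4.28 ± 0.84 (SE) in Wnt1 cultures had a limma adjusted p of 0.010863, and 0.070033 with quantile normalization. Stmn4 also rose in control cultures, by 2.59 ± 0.84 (SE, limma adjusted p = 0.039954, and 0.24101 with quantile normalization). Dcx, a microtubule protein of migrating neurons, moved the other way, at 287 and 100.5 in Wnt1 cultures and 584 and 395 in control cultures, against 1316 and 1287 in stalk. In Wnt1 cultures it fell by 2.62 on the log2 scale (limma adjusted p = 0.0060555, and 0.010993 with quantile normalization). In control cultures it fell by 1.36 (limma adjusted p = 0.038834, and 0.065145 with quantile normalization).

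The autonomic transmitter genes counted 4 that rose of 12 in control cultures (median 1.51) and 3 in Wnt1 cultures (median 1.42), and 8 of the 12 were above the filter on culture arrays alone. Chat, which makes acetylcholine, rose by 2.51 in Wnt1 cultures and 2.40 in control cultures, and the nicotinic receptor subunit gene Chrna3 by 2.14 in each (log2 scale). Th, the first enzyme of catecholamine synthesis, rose by 1.87 in Wnt1 cultures, and Slc18a2 (1.92) and Chrnb4 (2.14) rose in control cultures. Chrna3 had 366 and 112 in Wnt1 cultures and 291 and 147 in control cultures, against 20.5 and 7.29 in stalk, so that its culture signals lay near the array medians. With quantile normalization 0 of the 12 passed.

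Of 7 glial and Schwann precursor genes, 1 rose and 1 fell in control cultures (median 0.82) and 0 passed in Wnt1 cultures (median 1.04). Mbp, a myelin protein gene, rose by 2.47 on the log2 scale in control cultures. Fabp7, a lipid carrier of glial precursors, was at 198 and 323 in Wnt1 cultures and 14.9 and 20.8 in control cultures, against 179 and 319.7 in stalk. It fell by 2.20 on the log2 scale in control cultures against stalk, and its Wnt1 to control difference was 2.27 ± 0.55 (SE) with a limma adjusted p of 0.55217. With quantile normalization the Mbp call was lost (limma adjusted p = 0.057508), the fall of Fabp7 kept its call (0.035181), and the list median in control cultures turned to -0.27.

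Of 3 pulmonary neuroendocrine genes that passed the filter, Chgb rose by 2.12 on the log2 scale in control cultures and lost its call with quantile normalization (limma adjusted p = 0.23911), and 0 passed in Wnt1 cultures. Insm1 was read by probe sets that disagree. The one that passed the filter was at 45.3 and 77.2 in Wnt1 cultures and 224 and 159 in control cultures, against 4.70 and 20.6 in stalk, and was called higher in control cultures (2.06, and adjusted p = 0.17483 with quantile normalization). The Insm1 probe set with the highest mean, which did not pass the filter, was at 398 and 3.32 in Wnt1 cultures and 20.7 and 19.8 in control cultures, against 74.9 and 23.4 in stalk, so no direction is given for this gene. By the probe set of highest mean for each gene, the neuroendocrine markers, which share neuronal genes, were above the array median for 3 and 1 of 7 genes in Wnt1 cultures, 2 and 0 in control cultures, 1 and 0 in tip and 0 and 0 in stalk, with a summed signal of 1370.1 and 381, 1357 and 501, 258 and 194, and 345 and 187 in the same order. Their part in the member values was not tested.

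Between tip and stalk 0 genes of these 6 lists passed the test, and the same count held between Wnt1 and control cultures. The largest tip to stalk values in each list, as log2 fold changes, included -1.08 for Ednrb, 1.30 for Chat and 0.85 for S100b. Chat had 129 and 126 in tip, against 53.8 and 5.40 in stalk. The largest Wnt1 to control values included -1.78 for Snai1, -1.95 for Gfra4, 1.69 for Stmn4, -1.65 for Cntn2, -1.21 for Slc18a2 and -1.17 for the Insm1 probe set that passed the filter. List median values between Wnt1 and control cultures lay between -0.31 and -0.02, beside -0.08 over all genes.

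**Figure D4:**
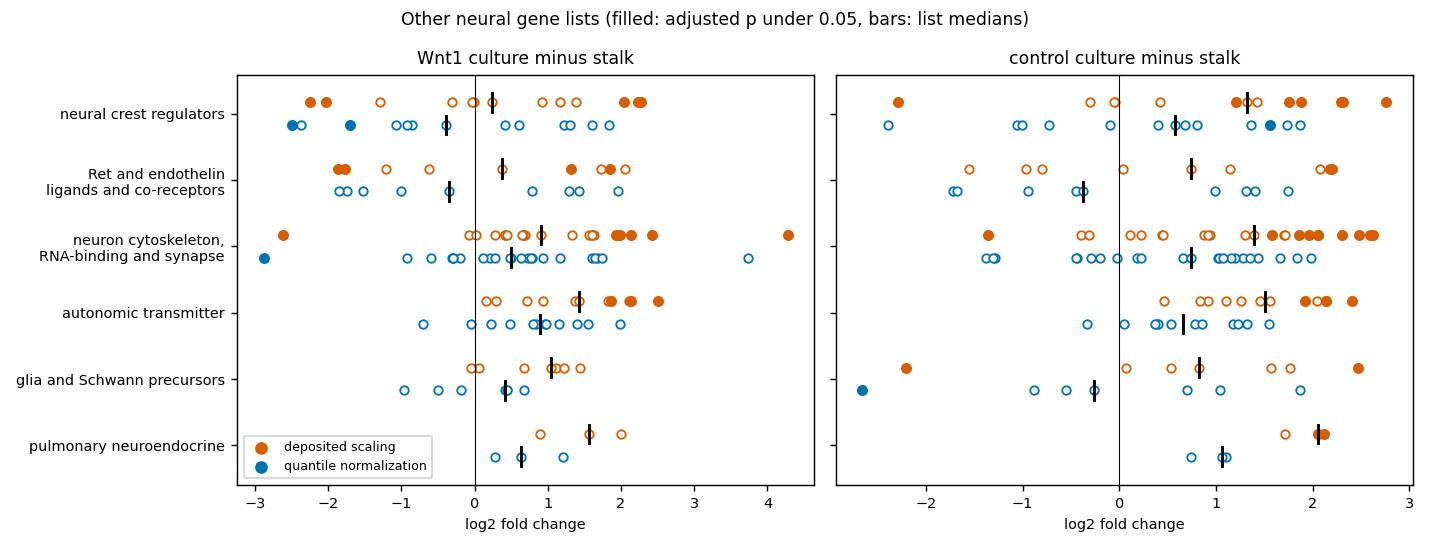
Each circle is the log2 fold change of 1 gene of 6 lists in Wnt1 cultures minus stalk (left) and control cultures minus stalk (right), filled where the adjusted p was under 0.05, in orange as deposited and in blue after quantile normalization, with bars at the list medians. As deposited, the medians lie to the right of 0 in all 6 lists, from 0.24 to 1.57 on the left and from 0.74 to 2.06 on the right, and most filled circles are orange. The highest median on each side is that of the 3 neuroendocrine genes, 2 of which were above the filter on culture arrays alone. On the right it is the value of Insm1, whose probe sets disagree. After quantile normalization 2 of the 6 medians are below 0 on each side, those of crest regulators (-0.39) and Ret and endothelin partners (-0.35) on the left, and of Ret and endothelin partners (-0.38) and glial genes (-0.27) on the right.

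The genes whose profile over the 8 arrays was most like that of a member were found by the root mean square difference of log2 signals after subtracting each gene's mean, among 10955 or 10956 genes. For Phox2a they were Chrm1, a muscarinic acetylcholine receptor gene, at 0.126 and Rinl at 0.127. For Elavl4 they were Rpl38, a ribosomal protein gene, at 0.104 and Pcsk4 at 0.132. For Stmn2 the closest were Pyy (0.189) and Synm (0.197), and for Tubb3 Syngr1 (0.158) and Lrriq3 (0.174). Foxd3 was closest to Ccdc92 (0.217) and Cend1 (0.256), Sox10 to Fbxo27 (0.362) and Gpr37 (0.388), and Ret to Rsu1 (0.494) and Rfxank (0.508), the widest distances of the 7. A member's own spread on the same scale ran from 0.700 for Foxd3 to 0.970 for Phox2a.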

How the data were processed

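Total RNA was amplified with a 2-cycle cDNA kit and labelled with biotin, per the labels' protocols. The authors deposited 1 linear intensity per probe set and array, which MAS5 in Affymetrix Expression Console produced, per the submitters' processing notes. Neither a version nor a setting is given in the sources used here. These values have a 2% trimmed mean of 500.0 on every array, while medians differ. Of 45101 probe sets, 64 controls were left out, 34945 have 1 gene symbol in the platform annotation, 932 several and 9160 none; 34741 matched RefSeq and 0 symbols changed. Probe sets were kept where 2 or more arrays exceeded 96.59, the 40th percentile of all signals, and each gene was represented by the kept probe set with the highest mean. Marker sums and counts above the array median used the highest mean without that filter, which changed the probe set of 1 list gene, Insm1.

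Values were tested as log2(value + 44), which understates the change of dim genes, with limma 3.58.1 in R 4.3.3 (all 8 arrays in 1 fit, trended eBayes, two-sided). P-values were adjusted by Benjamini-Hochberg across 16112 genes, and 0.05 was the threshold. The procedure was tested on simulated data with independent noise and no array-wide difference between groups. That run therefore does not cover the difference in array medians between cultured and uncultured tissue. Named were all members, up to 4 genes per list and comparison that passed with the smallest p, or otherwise the 2 largest changes; Nes and Snai2 were named after their values were seen. Alternatives were 14 per comparison, each of 8 arrays left out in turn, and 1 more, both culture arrays numbered 1 left out, chosen after seeing the data. Members and lists were chosen with earlier results of these data known. Figures used matplotlib 3.10.9 in Python 3.11.15.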

Additional observations from a re-analysis of the deposited data

How the results depend on the processing

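The count of members past the threshold was 0 between tip and stalk and 0 between Wnt1 and control cultures under all 23 alternatives. In control cultures against stalk the 2 calls became 0 with quantile normalization, 0 with equal array medians, 1 with the signal floor at 298.6 and 1 when the probe sets of each gene were averaged. Leaving out an array gave 0 to 3 calls: 0 without stalk replicate 1, stalk replicate 2 or control culture replicate 1, 1 without either tip array and 3 without either Wnt1 array. In Wnt1 cultures against stalk the 2 calls became 0 with quantile normalization, equal array medians, array quality weights or a fit of the 2 groups alone. They became 1 with a pseudocount of 100, no filter, the filter at the highest array median, the signal floor, every probe set on its own or averaged probe sets. Leaving out an array gave 0 to 5 calls: 0 without either tip array, either stalk array or Wnt1 culture replicate 1, and 5 without Wnt1 culture replicate 2. The cause of these changes was not tested, and the fits without an array also rest on fewer arrays. Phox2a stayed past the threshold in 15 of 23 alternatives in control cultures and 9 of 23 in Wnt1 cultures, and Elavl4 in 17 and 13 of 23. Each had a positive log2 fold change in all 23. For Elavl4 this covers the probe set that stands for the gene and the average of its probe sets. Its other probe sets, tested on their own, did not pass. Against stalk, 1428741_at was at -0.45 in control cultures and 0.42 in Wnt1 cultures, and 1452894_at at 0.60 and 0.77. Without the 2 culture arrays numbered 1, an alternative chosen after seeing the data, 2 members passed in Wnt1 cultures and 3 in control cultures.

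The labels give no pairing of equal replicate numbers. The replicate 1 to replicate 2 differences of the groups correlated between -0.0821 (tip and stalk) and 0.305 (the 2 cultures), and the fit with the replicate block gave 2 calls in each culture comparison and 0 in the others. Sox10, Foxd3, Ret and Tubb3 did not pass the filter at the highest array median and have no value there. A fit without 1 array takes the lone array of that group to vary as the other groups do. Signals of most members at or under the array medians limit every direction given here.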
